A study of Mus musculus with 6 samples.

Results

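The genes described here are the numbered mouse Zfp genes (symbols made of Zfp, a number and at most 1 letter) whose mean over all 6 libraries was 5 CPM or more (CPM is a gene's count divided by the library total and scaled to a total of 1000000). They were thus selected on their mean level over both groups. The table held 395 such symbols among 26264 genes, and 318 of them (80.5%) reached the limit and are called members below. The libraries came from cultures of adult mouse spinal cord neural stem cells, C57BL6J background, kept in medium with N2, B27, EGF and FGF2. The labels of all libraries name the reporter PDGFRaGFP, and the cells were separated by cell sorting. The 3 GFP-positive libraries are labelled PDGFRaGFP/+, and the 3 GFP-negative libraries are labelled PDGFRaGFP/-, which the labels do not explain further. The study set both fractions against each other to follow the production of oligodendrocyte precursors and oligodendrocytes. The titles number the libraries 314, 315 and 316 in both groups (replicates 1, 2 and 3 here). What a number stands for (an animal, a culture, a sort) is not stated, so the p-values reflect only how far these samples spread, and that spread may be technical.

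Zfp is the mouse name for a large set of proteins built mostly of Cys2-His2 zinc fingers, small folds that each hold a zinc ion and read a few bases of DNA or RNA. Many also carry a KRAB box, a stretch that binds the corepressor Trim28, which brings in Setdb1, heterochromatin proteins and histone deacetylases. KRAB zinc finger genes lie in clusters of recent duplicates, and many are known for silencing retroelements and for guarding imprinted genes. Other Zfp proteins have no KRAB box and act as lineage transcription factors, RNA-binding proteins, ubiquitin or SUMO ligases, or spindle proteins. The shared name therefore does not mark a shared function.

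Total counts were 36846570, 45207335 and 36922473 in the GFP-positive libraries, and 32869705, 31148620 and 31067850 in the GFP-negative ones. Pdgfra, whose reporter was sorted, had 236, 205 and 244 CPM in the GFP-positive libraries and 8.06, 19.4 and 13.8 CPM in the GFP-negative ones (log2 fold change 4.06, SE 0.27, edgeR adjusted p = 1.28e-05). Of 9 oligodendrocyte precursor markers, 8 were higher in GFP-positive cells, with a summed level of 7338 to 7934 CPM against 5486 to 5741 CPM. All 8 astrocyte markers were lower, summing to 464 to 587 CPM in the sorted GFP-positive libraries against 3478 to 4295 CPM in GFP-negative ones. All 6 neural stem cell markers were lower as well, at 1618 to 1843 CPM against 5418 to 6135 CPM. RNA of markers of the labelled cell type was thus detected in both groups. These sums do not show that such cells were present in both. Neuronal markers summed to 32.3 to 39.9 CPM against 7.33 to 13.5 CPM, with Slc17a6 at 0. Microglial markers stayed at 1.11 CPM or less against 2.66 CPM or less, with C1qa at 0. Myelin markers summed to 205 to 225 CPM against 127 to 176 CPM, and endothelial markers to 0.948 CPM or less against 2.02 to 8.24 CPM, with Cldn5 at 0. The part of these cell types in the Zfp values was not tested. In sorted bulk RNA, fewer cells of a type and less RNA per cell cannot be told apart.

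Zfp genes as a group stood at slightly higher levels in GFP-positive cells, by many small differences rather than a few large ones. Members took 1.65, 1.62 and 1.63% of all counts in the GFP-positive libraries, against 1.34, 1.39 and 1.32% in the GFP-negative ones, and the groups did not overlap. The median member had 29.99, 28.7 and 28.7 CPM in GFP-positive libraries and 25.7, 25.2 and 25.1 CPM in GFP-negative ones. edgeR's quasi-likelihood test, adjusted over all 14554 genes tested, called 179 members (56.3%) higher and 24 (7.55%) lower in GFP-positive cells, at an adjusted p below 0.05. Among all genes tested, 26.1% were called higher and 29.2% lower. Among the 10925 genes tested that also reached 5 CPM, 30.5% were called higher and 29.5% lower. Calls in either direction took 55.4% of all genes tested and 60% of those at 5 CPM or more. The remaining 115 members were not called. Without replicate 1 in both groups the counts were 111 higher and 14 lower, and without replicate 3 they were 112 and 13.

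The median log2 fold change of the members was 0.27, a 1.21-fold difference, against -0.0058 over all genes tested and 0.012 over the 10607 other genes of 5 CPM or more. Values were above 0 for 255 members and below 0 for 63. In the 3 same-numbered pairs of libraries the median log2 ratio of members was 0.28, 0.21 and 0.29, and 256, 249 and 250 members were higher in the GFP-positive library of the pair. All 3 GFP-positive libraries lay above all 3 GFP-negative ones for 204 members (64.2%), against 30.9% of all genes tested and 35.1% of those at 5 CPM or more. They lay below them for 27 members (8.49%), against 33.3% and 33.4%.

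**Figure D1:**
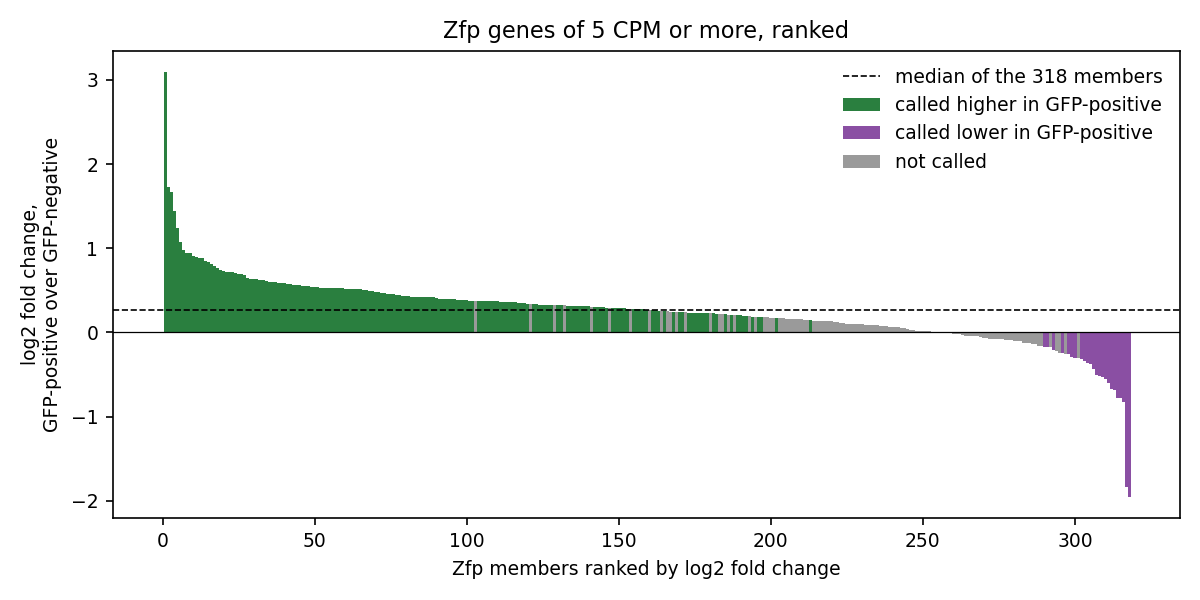
log2 fold change (GFP-positive over GFP-negative) of the 318 Zfp members, ranked from highest to lowest, 1 bar per gene, coloured by the edgeR call at an adjusted p below 0.05. The dashed line is the members' median of 0.27; most bars lie above 0, and few are longer than 1.

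The differences were small. Among the 179 members called higher, the median log2 fold change was 0.41, or 1.33-fold; 40 of them exceeded 1.5-fold and 6 exceeded 2-fold. Of the 24 called lower, 8 exceeded 1.5-fold and 2 exceeded 2-fold, with a median of -0.47. Over all genes tested, 6.07% were called higher by more than 1 on the log2 scale and 12.3% lower by more than 1; at 5 CPM or more the shares were 4.9% and 8.33%. The median standard error of a member's log2 fold change was 0.08. Replicates varied little around these values, with a median coefficient of variation of 4.59% in GFP-positive and 6.40% in GFP-negative libraries.

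**Figure D2:**
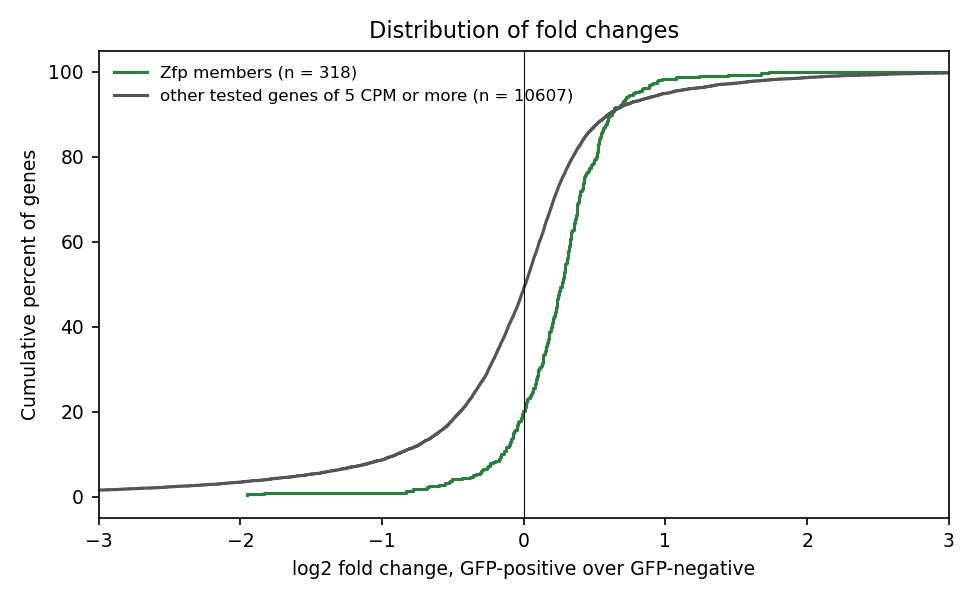
Cumulative percent of genes (vertical) at or below each log2 fold change, GFP-positive over GFP-negative (horizontal), for the 318 Zfp members and the 10607 other tested genes of 5 CPM or more. The members' curve is narrower and lies to the right around 0, with medians of 0.27 and 0.012; values beyond -3 and 3 are outside the axis.

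Mean level chose the members, so that level is a description only. It ran from 5.22 CPM for Zfp808 to 650 CPM for Zfp462. The members just inside the limit were Zfp808, Zfp709 (5.41 CPM) and Zfp72 (5.44 CPM), and the symbols just outside were Zfp688 (4.95 CPM), Zfp119b (4.94 CPM) and Zfp114 (4.86 CPM). All 318 members passed the count filter of the test. Of these, 313 reached 5 CPM in both groups, with 176 called higher and 23 lower. The group mean reached 5 CPM only in GFP-positive cells for 3 members (Zfp804a, Zfp69 and Zfp773, all called higher) and only in GFP-negative cells for 2 (Zfp934, not called, and Zfp595, called lower). Of the 77 Zfp symbols under 5 CPM, 42 passed the filter, with 8 called higher and 4 lower and a median of 0.06, and 35 did not.

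Per kilobase of transcript, the median member had 8.70 CPM in GFP-positive cells, against 7.20 CPM in GFP-negative cells. Zfp207, a spindle assembly protein that binds microtubules, had the highest level per length, at 103 CPM per kb against 89.3 CPM per kb. Its counts were 305, 275 and 312 CPM in GFP-positive libraries and 254, 276 and 246 CPM in GFP-negative ones, groups that overlapped (log2 fold change 0.21, SE 0.07, edgeR adjusted p = 0.0334). The call was lost in 6 of the 9 fits made without a single library or a same-numbered pair, with an edgeR adjusted p of up to 0.254.

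Zfp462, a chromatin protein whose human counterpart is a neurodevelopmental disorder gene, took the most reads of any member. It had 841, 829 and 828 CPM in GFP-positive libraries and 451, 516 and 437 CPM in GFP-negative ones, which is 79.6 against 44.7 CPM per kb. The groups were far apart (log2 fold change 0.84, SE 0.07, edgeR adjusted p = 3.5e-05). Zfp704 had 461, 448 and 434 CPM against 312, 362 and 268 CPM (0.52, SE 0.10, edgeR adjusted p = 0.00255), though 18.3% of its exon bases lie under exons of an opposite-strand gene. Zfp638, an RNA-binding protein of nuclear speckles, had 354, 335 and 355 CPM against 247, 268 and 245 CPM (0.46, SE 0.06, edgeR adjusted p = 0.00025). Zfp106, an RNA-binding protein needed for motor neuron upkeep in mice, went the other way, at 292, 296 and 294 CPM against 334, 321 and 338 CPM. Its log2 fold change was -0.17 (SE 0.05, edgeR adjusted p = 0.021), the call was lost in 7 of 9 leave-out fits (edgeR adjusted p up to 0.200), and 26.0% of its exon bases lie under an opposite-strand gene. The strand setting of the counting is not given in the sources used here, so reads of such overlaps cannot be assigned.

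The largest difference among members was that of Zfp804a, a single-finger protein whose human counterpart lies in a schizophrenia risk locus. It had 18, 41.6 and 21.5 CPM in GFP-positive libraries and 0.73, 7.93 and 0.933 CPM in GFP-negative ones. Replicate 2 was the highest library of both groups. Pdgfra was also highest in replicate 2 among GFP-negative libraries, at 19.4 CPM. Among GFP-positive libraries Pdgfra was lowest in replicate 2, at 205 CPM. The other precursor markers differed in this. Sox10 (39.2, 93.7 and 45.2 CPM against 2.34, 12.6 and 3.51 CPM), Gpr17 and C1ql1 were highest in replicate 2 of both groups. Olig1, Olig2 and Lhfpl3 behaved as Pdgfra did, and Cspg4 and Ptprz1 were highest in replicate 2 of neither group. A link between these genes was not tested. The log2 fold change of Zfp804a was 3.09 (SE 0.77, edgeR adjusted p = 0.00963). It was 5.03 without the GFP-negative library of replicate 2 (edgeR adjusted p = 1.89e-05). Without replicate 3 of both groups it was 2.81 and the edgeR adjusted p was 0.0573. Zfp711, an X-linked promoter-binding protein whose human counterpart is an intellectual disability gene, followed with 36.6, 32.6 and 27.6 CPM against 9.34, 11.4 and 8.56 CPM (1.73, SE 0.14, edgeR adjusted p = 3.03e-05).

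Zfp57, the KRAB zinc finger protein that keeps methylation at imprinted control regions, came next. Its level was 81.0, 78.5 and 83.2 CPM in GFP-positive libraries and 25.8, 27.3 and 23.2 CPM in GFP-negative ones, a 3.19-fold difference with replicates close to each other. The log2 fold change was 1.67 (SE 0.07, edgeR adjusted p = 2.23e-06). The 250 bases before the starts of Zfp804a and Zfp57 are shown because these members stand near the top of the ranking and differ in how many CG dinucleotides (in capitals) precede their start, 35 and 3. Both come from RefSeq, build GRCm38.p6, for the first listed start of the gene, 5′ to 3′ on the gene's strand. The median over members was 12 CG in 250 bases, against 9 over the 19438 genes of the count table with such a sequence. Those genes were not held to the 5 CPM limit.
Zfp804a, chr2:82053408-82053657 (+ strand): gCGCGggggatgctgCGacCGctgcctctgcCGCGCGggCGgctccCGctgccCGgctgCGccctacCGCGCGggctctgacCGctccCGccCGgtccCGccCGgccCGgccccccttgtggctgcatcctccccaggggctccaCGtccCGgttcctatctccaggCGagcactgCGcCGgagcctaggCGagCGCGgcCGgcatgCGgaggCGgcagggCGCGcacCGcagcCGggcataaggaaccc
Zfp57, chr17:37003416-37003665 (+ strand): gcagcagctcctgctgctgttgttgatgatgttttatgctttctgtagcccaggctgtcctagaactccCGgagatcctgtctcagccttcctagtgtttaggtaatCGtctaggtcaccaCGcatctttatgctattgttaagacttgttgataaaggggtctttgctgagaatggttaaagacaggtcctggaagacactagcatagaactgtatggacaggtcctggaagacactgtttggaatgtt

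Zfp69 and Zfp810 completed the members above 2-fold together with Zfp566. Zfp69 had 12.2, 12.9 and 11.3 CPM in GFP-positive libraries and 4.69, 4.30 and 4.44 CPM in GFP-negative ones (1.44, SE 0.11, edgeR adjusted p = 2.52e-05). Zfp810 had 15.1, 15.3 and 16 CPM against 6.69, 6.16 and 6.86 CPM (1.24, SE 0.10, edgeR adjusted p = 2.73e-05). Zfp566, with a KRAB box and 7 fingers, differed by 1.07 (SE 0.13, edgeR adjusted p = 0.000219), but it shares 15.7% of its 50-base words with other genes, so its counts are less certain. The next members by size were Zfp667 (0.98), Zfp811 (0.95), Zfp786 (0.94) and Zfp9 (0.91), all of the KRAB class, with edgeR adjusted p between 3.29e-05 and 0.000262. In each of these 4 genes every GFP-positive library lay above every GFP-negative one.

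Few members were lower, and the list was led by proteins without a KRAB match. Zfp217, a transcriptional corepressor partner known as an oncogene in human breast cancer, had 4.51, 6.97 and 5.58 CPM in GFP-positive libraries against 22.8, 18.5 and 24.9 CPM in GFP-negative ones. It was 3.86-fold lower (log2 fold change -1.95, SE 0.18, edgeR adjusted p = 5.83e-05). Zfp36, or tristetraprolin, is an immediate early CCCH-type finger protein that binds AU-rich messenger RNAs and hastens their decay. Its level was 18.7, 15.2 and 12.5 CPM against 76.5, 33.9 and 55.6 CPM, with a wide spread among GFP-negative libraries but no overlap (-1.84, SE 0.28, edgeR adjusted p = 0.000841). The stretches before the first listed starts of these 2 members, the only ones more than 2-fold lower, hold 6 and 18 CG (capitals).
Zfp217, chr2:170142676-170142925 (- strand): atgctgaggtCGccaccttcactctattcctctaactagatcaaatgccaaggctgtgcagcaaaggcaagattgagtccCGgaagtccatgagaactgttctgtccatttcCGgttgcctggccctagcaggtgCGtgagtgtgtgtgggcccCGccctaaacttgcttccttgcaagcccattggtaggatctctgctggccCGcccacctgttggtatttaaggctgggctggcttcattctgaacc
Zfp36, chr7:28379229-28379478 (- strand): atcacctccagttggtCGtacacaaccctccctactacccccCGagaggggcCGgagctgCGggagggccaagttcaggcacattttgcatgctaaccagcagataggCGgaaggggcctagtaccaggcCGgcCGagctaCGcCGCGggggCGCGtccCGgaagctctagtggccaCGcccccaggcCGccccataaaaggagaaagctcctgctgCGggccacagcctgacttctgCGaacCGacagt

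The other large decreases were below 2-fold. Zfp385a, an RNA-binding p53 cofactor, fell to 24.3, 24.5 and 23.5 CPM in GFP-positive libraries, against 45.2, 44.9 and 38.8 CPM in GFP-negative ones (-0.83, SE 0.08, edgeR adjusted p = 6.13e-05). Zfp706 fell to 100, 106 and 101 CPM, against 158, 149 and 159 CPM (-0.60, SE 0.05, edgeR adjusted p = 5.29e-05). Zfp438 (-0.78), Zfp395 (-0.78), Zfp870 (-0.67) and Zfp710 (-0.53) also fell, with edgeR adjusted p between 0.000476 and 0.00141. Zfp503, a corepressor of striatal development, had a log2 fold change of -0.69 (edgeR adjusted p = 0.0114; 0.0645 without replicate 1). Zfp595 had -0.56 (edgeR adjusted p = 0.0158), a call lost in 5 of 9 leave-out fits with an edgeR adjusted p of up to 0.0860.

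**Figure D3:**
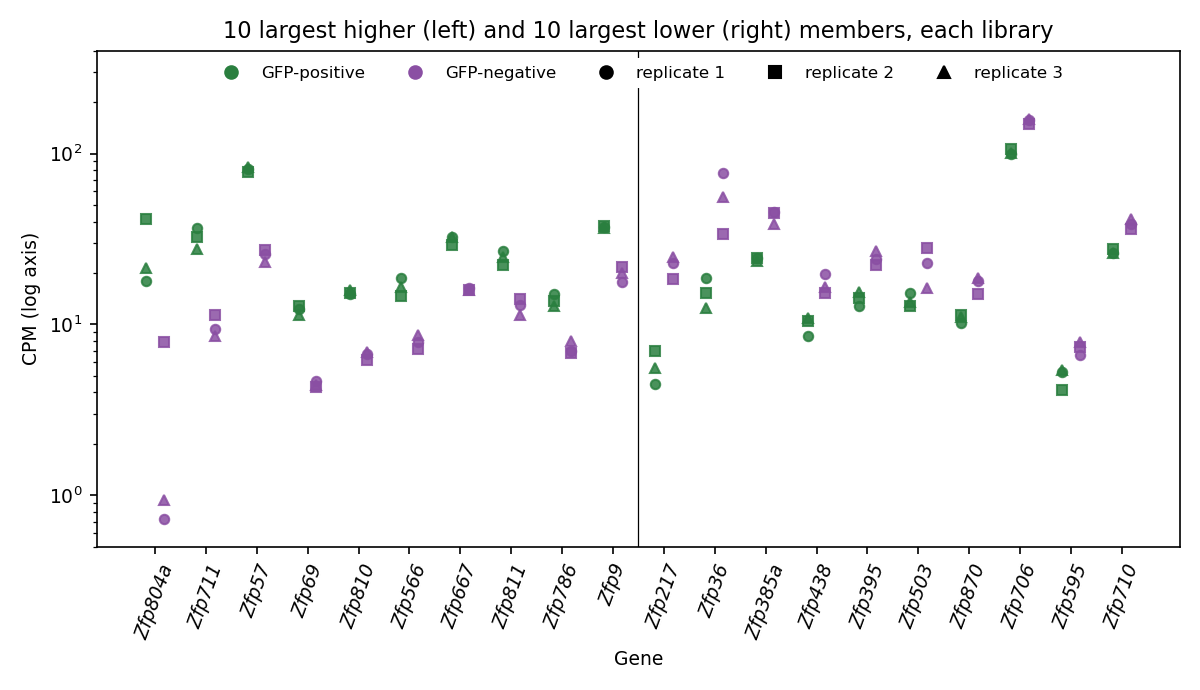
CPM (log axis) of each library for the 10 members with the largest called increases (left of the line) and the 10 with the largest called decreases (right of the line). Green points are GFP-positive and purple points GFP-negative libraries, with marker shapes for replicates; the groups are apart in all 20 genes, and Zfp804a spreads most, between 0.73 and 7.93 CPM in GFP-negative libraries.

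A list of 15 Zfp genes with known roles in neural or glial cells held 14 members. Of these, 7 (50%) were higher, 3 (21.4%) lower and 4 not called (median log2 fold change 0.27). Over all members 56.3% were called higher and 7.55% lower, and over all genes tested 26.1% and 29.2%. Zfp488, a transcriptional partner of Olig2 in oligodendrocyte differentiation, had 116, 124 and 119 CPM in GFP-positive libraries and 60.5, 90.3 and 68.7 CPM in GFP-negative ones. It rose by 0.71 on the log2 scale (SE 0.13, edgeR adjusted p = 0.00196), with 15% of its 50-base words shared with other genes. Zfp292, linked to human intellectual disability, had 271, 267 and 267 CPM against 165, 188 and 166 CPM (0.64, SE 0.06, edgeR adjusted p = 7.27e-05). Zfp335, a neural progenitor gene whose loss gives microcephaly in humans, had 55.4, 61.2 and 58.4 CPM against 42.3, 44.3 and 44.1 CPM (0.43, SE 0.06, edgeR adjusted p = 0.000581). Zfp276 rose by 0.40 (SE 0.08, edgeR adjusted p = 0.00243). For Zfp335 and Zfp276, 29.2% and 26.4% of exon bases lie under an opposite-strand gene. Zfp804a, Zfp711 and Zfp462, described above, were the other 3 that rose.

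The 3 members of this list that fell were Zfp503 and the closely related pair Zfp423 and Zfp521, long proteins in each of which 27 fingers were found and which act with EBF factors in lineage choice. Zfp423 had 57.9, 62.6 and 59.4 CPM in GFP-positive libraries and 85, 82.4 and 91.9 CPM in GFP-negative ones (-0.52, SE 0.06, edgeR adjusted p = 0.000268). Zfp521 had 101, 101 and 94.4 CPM against 125, 130 and 131 CPM (-0.38, SE 0.05, edgeR adjusted p = 0.000485). Zfp24, needed for myelination in mice, was not called, at 202, 190 and 188 CPM against 219, 207 and 210 CPM (-0.12, SE 0.05, edgeR adjusted p = 0.0777). The other uncalled members were Zfp365 (-0.24, edgeR adjusted p = 0.117; 0.0141 without replicate 2), Zfp219 (-0.06, edgeR adjusted p = 0.302) and Zfp703 (0.15, edgeR adjusted p = 0.148). The 15th gene, Zfp536, a repressor of neuronal differentiation, lay under the limit of 5 CPM, with 6.27, 7.23 and 5.80 CPM against 3.71, 1.83 and 1.48 CPM (1.46, SE 0.32, edgeR adjusted p = 0.00502).

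Of all members, 56.3% were called higher and 7.55% lower, and of all genes tested 26.1% and 29.2%. Of 11 members that bind RNA, ribosomes or the spindle, 5 (45.5%) were higher and 3 (27.3%) lower (median 0.18). Besides Zfp638 and Zfp207, the higher ones included Zfp326, part of a complex that joins splicing to transcript elongation, at 91.5, 88.6 and 87.7 CPM in GFP-positive against 67.0, 73.0 and 66.7 CPM in GFP-negative libraries (0.38, SE 0.06, edgeR adjusted p = 0.00069). The 3 lower ones were Zfp36, Zfp385a and Zfp106. Without replicate 1 or replicate 3, 2 of these 11 were called higher when the pair was left out and 3 when the GFP-positive library alone was. Of 15 members that act on chromatin or promoters or as ligases, 8 (53.3%) were higher and 1 (6.67%), Zfp217, was lower (median 0.21). Zfp451, a SUMO ligase, had 157, 156 and 151 CPM against 96.7, 106 and 97.0 CPM (0.64, SE 0.05, edgeR adjusted p = 3.36e-05). Zfp827, which recruits the NuRD complex to telomeres, had 161, 153 and 148 CPM against 105, 101 and 101 CPM (0.59, SE 0.05, edgeR adjusted p = 4.95e-05).

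Among 9 listed genes that silence retroelements or guard imprints, 6 were members, and 5 of these (83.3%) were higher and none lower (median 0.30). All members had 56.3% called higher and 7.55% lower, and all genes tested 26.1% and 29.2%. No member of this list was lower at an unadjusted p below 0.05 in edgeR, or by DESeq2 or limma. Without the pair of replicate 1 or of replicate 3, 2 were called higher. Besides Zfp57, the largest was Zfp932, a silencer of endogenous retroviruses, with 87.3, 81.4 and 85.2 CPM in GFP-positive libraries, against 47.2, 54.4 and 50.8 CPM in GFP-negative ones (0.74, SE 0.07, edgeR adjusted p = 5.76e-05). It shares 45.2% of its 50-base words with other genes, so its counts are uncertain. Zfp568, a repressor of a placental Igf2 transcript, had a log2 fold change of 0.33 (edgeR adjusted p = 0.0159). Zfp445, the partner of Zfp57 in imprint upkeep, had 243, 226 and 235 CPM against 202, 209 and 205 CPM (0.20, edgeR adjusted p = 0.0107). Both calls were lost without replicate 1 or replicate 3 in both groups, with an edgeR adjusted p of up to 0.0721 and 0.102. With a trend on GC content and length removed, an alternative chosen after seeing the data, Zfp445 had 0.08 (edgeR adjusted p = 0.196) and Zfp568 had 0.23 (edgeR adjusted p = 0.0609). Zfp708 had 0.28 (edgeR adjusted p = 0.0367; 0.0553 with the replicate block), a call lost in 9 of 9 leave-out fits, and all of its 50-base words occur in another gene. Zfp809, which silences murine leukaemia proviruses in embryonic cells, was not called, at 13.1, 16.5 and 13.9 CPM against 17.1, 15.9 and 17.7 CPM (-0.22, SE 0.11, edgeR adjusted p = 0.127; without replicate 2 in both groups 0.0163, lower). Zfp992 lay under 5 CPM and was not called (0.71, edgeR adjusted p = 0.151); without GFP-positive replicate 3 it was called higher (1.00, edgeR adjusted p = 0.0410).

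Differences in the KRAB corepressor machinery were mostly of similar small size. Of 15 partners, 8 (53.3%) were higher and 2 (13.3%), Rbbp7 and Dnmt3a, were lower (median 0.25). All genes tested had 26.1% called higher and 29.2% lower. Without replicate 3 in both groups 1 partner was called lower. Trim28 had 261, 280 and 278 CPM in GFP-positive libraries and 217, 233 and 209 CPM in GFP-negative ones (0.32, SE 0.06, edgeR adjusted p = 0.00205). Setdb1, the histone methyltransferase of the complex, had 114, 113 and 118 CPM against 106, 112 and 104 CPM and was not called (0.10, edgeR adjusted p = 0.117). Smarcad1, a remodeller that binds Trim28, rose by 0.55 on the log2 scale (SE 0.05, edgeR adjusted p = 6.66e-05), and the deacetylase Hdac2 by 0.34 (SE 0.05, edgeR adjusted p = 0.000781). The NuRD remodeller Chd3 stood apart, with 74.1, 126 and 88.5 CPM against 6.45, 24.9 and 7.40 CPM (2.90, SE 0.48, edgeR adjusted p = 0.00131); as with Zfp804a, replicate 2 was the highest library in both groups.

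A KRAB box was found by sequence pattern in the protein of 134 members, and 180 members had a protein without a match. Among all members 56.3% were called higher and 7.55% lower, and among all genes tested 26.1% and 29.2%. Of the KRAB members, 84 (62.7%) were higher and 3 (2.24%) lower, with a median log2 fold change of 0.29. The 3 were Zfp870, Zfp950 (-0.24) and Zfp46 (-0.17), of which Zfp950 and Zfp46 were picked after their values were seen. Zfp46 lost its call in 7 of 9 leave-out fits (edgeR adjusted p up to 0.291) and with the replicate number as a block (edgeR adjusted p = 0.0545). Zfp950 lost it in 4 of 9 (edgeR adjusted p up to 0.153). Of the members without a match, 92 (51.1%) were higher and 21 (11.7%) lower, with a median of 0.23. Most of the 24 decreases thus lay among members without a match. No test was made of this difference between classes. The pattern is strict and can miss boxes, so the members without a match may include KRAB proteins. A looser pattern took in 158 members, of which 98 were higher and 4 lower. The KRAB members' median GC content was 41.7%, against 48.8% for those without a match. Without replicate 1 or replicate 3 in both groups, 45 and 49 KRAB members were called higher.

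The number of fingers found in the protein ran up to 33. Members with 1 to 4 fingers had 23 higher and 7 lower of 46 (median 0.21), and those with 5 to 9 fingers had 53 higher and 4 lower of 85 (0.30). With 10 to 14 fingers, 65 were higher and 6 lower of 108 (0.30), and with 15 or more, 34 were higher and 5 lower of 67 (0.24). The medians of these classes lay within 0.10 of each other. In 8 members no Cys2-His2 finger was found (Zfp36, Zfp326, Zfp330, Zfp365, Zfp503, Zfp703, Zfp839 and Zfp972), and 1 of them was higher and 2 lower. Of 39 tested Zbtb genes, zinc finger proteins with a BTB domain, 15 (38.5%) were higher and 7 (17.9%) lower (median 0.17). All genes tested had 26.1% called higher and 29.2% lower. Of 21 tested Zscan and Zkscan genes, which carry a SCAN domain, 10 (47.6%) were higher and none lower in edgeR (median 0.16). Of these 21, 1 was lower at an unadjusted p below 0.05 in edgeR, and none by DESeq2 or limma. Without replicate 3 in both groups 8 Zbtb genes were higher and 4 lower, without replicate 1 in both groups 3 were lower and 6 Zscan and Zkscan genes were higher, and without GFP-positive replicate 3 or GFP-negative replicate 2 alone 4 Zbtb genes were lower.

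**Figure D4:**
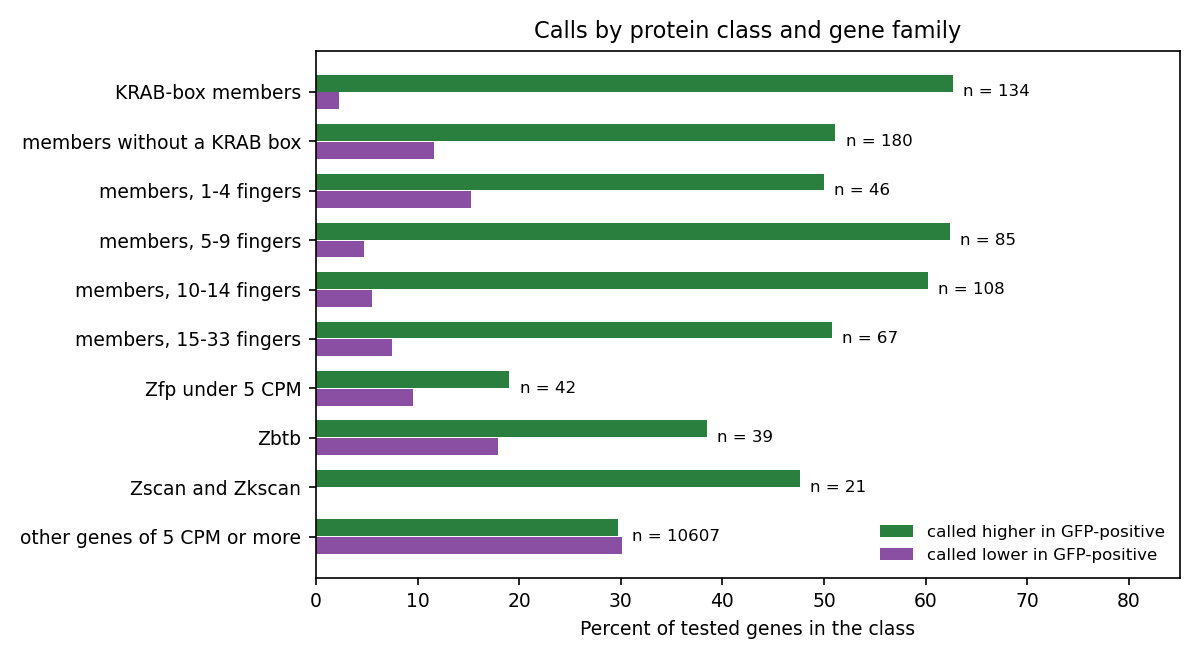
Percent of the tested genes of each class (horizontal) called higher (green) or lower (purple) in GFP-positive cells by edgeR, for member classes, other zinc finger families and other genes of 5 CPM or more. KRAB members show 62.7% higher and 2.24% lower, and the 10607 other genes show 29.7% and 30.1%. Members without a KRAB box are those without a match to the sequence pattern.

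The members' median was above 0 at every base composition and level. Members had a median GC content of 45%, against 49.8% for all tested genes of 5 CPM or more. In the 5 equal parts of those genes by GC content, from low to high, the members' median log2 fold change was 0.27, 0.33, 0.37, 0.23 and 0.18, and that of the other genes was 0.02, 0.02, 0.0047, -0.02 and 0.03. In bins of mean level from 5 to 10 CPM up to 80 CPM and more, the members' median lay between 0.24 and 0.33, and that of other genes between -0.14 and 0.07. Calls were also counted by how unique the sequence is. Over all members 56.3% were called higher and 7.55% lower, and over all genes tested 26.1% and 29.2%. The 52 members with more than 10% of 50-base words shared with other genes had 22 (42.3%) higher and none lower (median 0.20). None of these 52 was lower at an unadjusted p below 0.05 in edgeR, or by DESeq2 or limma. The 264 others had 155 (58.7%) higher and 24 (9.09%) lower (0.28). The 59 members with an opposite-strand exon overlap had 34 (57.6%) higher and 4 (6.78%) lower. The 257 without had 143 (55.6%) higher and 20 (7.78%) lower, and the median was 0.27 in both classes.

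Zfp genes lie in clusters, and in most clusters the called members were higher, by small amounts, as among all members. Positions were taken from the RefSeq annotation of GRCm38.p6. The members were most numerous on chromosomes 7 (78), 17 (38), 13 (29) and 8 (22). Runs of 4 or more members with at most 2 other protein-coding genes between neighbours numbered 14 and held 104 members. In 13 of the 14 runs more members were higher than lower, and the median was above 0 in 13. Over all members 56.3% were called higher and 7.55% lower, and over all genes tested 26.1% and 29.2%. All 4 members of the run of Zfp418, Zfp954, Zfp772 and Zfp773 on chromosome 7 were higher, by 0.53 to 0.88 on the log2 scale, and all 5 of a run on chromosome 9 were higher, by 0.20 (Zfp426) to 0.53 (Zfp266). Zfp426 lost its call in 5 of 9 leave-out fits (edgeR adjusted p up to 0.115). Zfp418 and Zfp773 of the first run (without replicate 1) and Zfp846 (without replicate 1), Zfp26 and Zfp560 (without replicate 3) of the second each lost theirs in 1. In the chromosome 2 run of Zfp970, Zfp971, Zfp931 and Zfp972 none was called by edgeR (adjusted p between 0.0638 and 0.76), DESeq2 or limma, and 1 had an unadjusted p below 0.05 in edgeR. Genes of such a run often arose by duplication and can share sequence, so they are not independent.

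Some runs held members of opposite direction. On chromosome 17, Zfp811 had 26.8, 22.3 and 24.7 CPM in GFP-positive libraries, against 12.9, 14.1 and 11.4 CPM in GFP-negative ones (0.95), while Zfp870 of the same run had 10.2, 11.3 and 11.1 CPM against 18, 15.2 and 18.8 CPM (-0.67). On chromosome 13, Zfp458 rose by 0.89 and Zfp595 had -0.56. On chromosome 6, Zfp786 rose by 0.94 and Zfp467 had -0.26, a call lost in 5 of 9 leave-out fits (edgeR adjusted p up to 0.192). These were the 3 runs with a member called lower. Members with at least 1 member as neighbour had 111 (57.8%) higher and 6 (3.13%) lower of 192 (median 0.29). Those with none had 68 (54.0%) higher and 18 (14.3%) lower of 126 (0.24). The share called higher was thus near the 56.3% of all members in both classes, and 7.55% of all members were lower. All genes tested had 26.1% called higher and 29.2% lower.

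**Figure D5:**
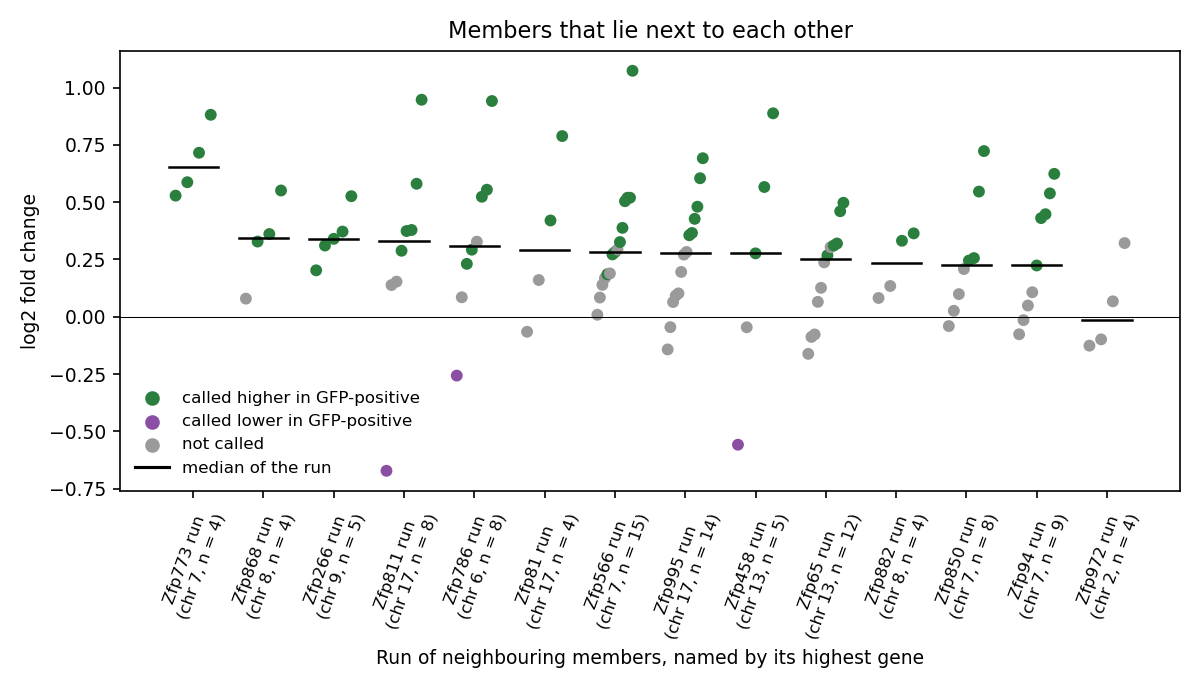
log2 fold change (vertical, GFP-positive over GFP-negative) of the members in the 14 runs of 4 or more neighbouring Zfp members, each run named by its highest gene; points are genes coloured by edgeR call, and bars are run medians. Medians are above 0 in 13 runs; purple points mark Zfp870, Zfp467 and Zfp595.

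Sequences before the start were compared for 266 members with an entry in the RefSeq promoter table, over the 250 bases before the first listed start, beside the 19438 genes of the count table with an entry. The table's build differs from mm39, the build of the counts, and for 219 of 264 members checked the bases after that start lay inside an annotated transcript of the gene. The 9-letter word ACTACAATT, searched on both strands, stood in 10 members (3.76%) and in 95 of all genes (0.489%). It is part of the motif known for Zfp143, a promoter-binding activator that is itself a member, with 45.2, 44.3 and 44.4 CPM in GFP-positive libraries, against 31.5, 34.1 and 27.4 CPM in GFP-negative ones (0.53, SE 0.08, edgeR adjusted p = 0.00089). CCGGAAGT, a core of ETS factor sites, stood in 9.02% of members and 3.72% of all genes, and CCAAT in 47.7% and 36.2%. TATAAA was found in 5.64% and 12.1%, and GGGCGG in 41.4% and 41.5%. The 19438 genes were not held to the 5 CPM limit, so level and gene family cannot be told apart in these shares. A match of letters is not a binding site.

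The 10 stretches of 40 bases around ACTACAATT are shown because this word had the largest ratio of shares, members over all genes, among the 8 words searched. Capitals mark the word or, where it lies on the other strand, its reverse complement AATTGTAGT; sequences run 5′ to 3′ on the gene's strand in GRCm38.p6. The first 5 genes were called higher (Zfp692 0.47, Zfp180 0.45, Zfp454 0.42, Zfp128 0.42 and Zfp1 0.28, of which Zfp1 lost its call in 4 and Zfp454 in 1 of 9 leave-out fits) and the other 5 were not called; none was lower at an unadjusted p below 0.05 in edgeR. Of the 10, 50% were thus called higher, beside 56.8% of the 266 members with a promoter sequence and 26.1% of all genes tested. The median of the 10 was 0.21, beside 0.27 over all members. Zfp180, Zfp111, Zfp93 and Zfp108 lie in the same run of neighbouring members on chromosome 7, so the 10 are not independent.
Zfp692, chr11:58307006-58307045 (+ strand): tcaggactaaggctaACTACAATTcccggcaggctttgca
Zfp180, chr7:24081857-24081896 (+ strand): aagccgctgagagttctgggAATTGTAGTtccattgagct
Zfp454, chr11:50887650-50887689 (- strand): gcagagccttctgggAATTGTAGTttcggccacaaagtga
Zfp128, chr7:12881138-12881177 (+ strand): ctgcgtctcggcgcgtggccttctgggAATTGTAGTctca
Zfp1, chr8:111643403-111643442 (+ strand): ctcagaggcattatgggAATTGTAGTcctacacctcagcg
Zfp933, chr4:147848426-147848465 (- strand): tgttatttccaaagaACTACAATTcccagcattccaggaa
Zfp111, chr7:24208360-24208399 (- strand): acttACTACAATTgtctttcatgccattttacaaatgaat
Zfp58, chr13:67500526-67500565 (- strand): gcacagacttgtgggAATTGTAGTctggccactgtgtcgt
Zfp93, chr7:24270334-24270373 (+ strand): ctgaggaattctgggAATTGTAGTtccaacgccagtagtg
Zfp108, chr7:24254714-24254753 (+ strand): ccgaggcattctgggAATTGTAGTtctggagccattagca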

How the data were processed

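RNA of 3 GFP-positive and 3 GFP-negative sorted samples was sequenced with the SMART-Seq Stranded kit, per the labels' protocols. The deposited values are raw counts of reads by gene, not normalized by the authors, per the file headers. According to the submitters' processing notes, TopHat2 2.1.1, SAMtools 1.9 and featureCounts 2.0.0 were used with the mm39 build. Annotation, strand setting and treatment of multiply mapped reads: not given in the sources used here. Members and gene lists were chosen with earlier results of these data known, so no list is independent evidence.

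CPM values are counts over library totals. Tests used edgeR 4.0.16 (R 4.3.3) on all genes passing filterByExpr, with TMM scaling, quasi-likelihood F tests and Benjamini-Hochberg adjustment; limma 3.58.1 (voom) and DESeq2 1.42.0 were alternatives. SE is the log2 fold change over the square root of F. The edgeR fit was tested on simulated counts with known changes. Those counts had the same spread setting for every gene and no pairing, so they do not show how the fit behaves on these libraries. Named genes were the 10 largest called increases and decreases with the same direction in all 3 pairs, the 5 members with most reads, the neural and retroelement lists, the 3 smallest p of each other list, and those nearest the 5 CPM limit. Others, such as Trim28, Setdb1, Zfp143, run members and genes with the promoter word, were picked after their values were seen.

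Same-numbered libraries deviated together (correlations over genes 0.218, 0.355 and 0.159, above the limit of 0.1). The numbers were therefore taken as pairs in the replicate block and in leaving out a pair. The main fit, which gave the calls, SE and adjusted p unless another fit is named, did not use the pairing. Chi-square over degrees of freedom between libraries of a group was 9.83 to 34.2, above counting noise. KRAB boxes and fingers were searched in proteins translated from GENCODE M21 transcripts (GRCm38), since no protein table was used. GC content and length came from the same transcripts for 99.4% of members. The depth gives precision for counting error only.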

Additional observations from a re-analysis of the deposited data

How the results depend on the processing

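Under 6 other scalings and filters, DESeq2 and limma-voom, 173 to 182 members were called higher and 20 to 24 lower, with a median log2 fold change of 0.25 to 0.28. With the replicate block, which uses the pairing, 183 were called higher and 23 lower, with a median of 0.27; Zfp708 (edgeR adjusted p = 0.0553) and Zfp46 (0.0545) were the members named here that lost their call there. Leaving out a library or a pair gave 111 to 185 higher and 13 to 28 lower, with a median of 0.26 to 0.30. The lowest counts came without replicate 1 (111 higher, 14 lower) and without replicate 3 (112 higher, 13 lower), and over all genes tested the leave-outs gave 2450 to 4169 higher and 2951 to 4468 lower, on both sides of the 3804 and 4254 of the full data. KRAB members called higher then numbered 45 to 89, and lower 1 to 4. Of the members called in the full data, 99 higher and 11 lower ones kept their call in all 9 of these fits. None was called in the opposite direction in any of the 20 alternatives, though the value of 2 changed sign in some fit.

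Removing a trend on GC content and transcript length, an alternative chosen after seeing the data, gave 162 higher and 32 lower members with a median of 0.23, and 5 KRAB members lower. With the replicate block as well, it gave 163, 33 and 0.231. Without the block, 149 of the 179 higher calls of the full data were kept and 13 were new. Of the 24 lower calls, 23 were kept, and 9 were new. The cause of these changes was not tested. Zfp24 (-0.27) and Zfp219 (-0.22) were then called lower, and 2 of the 6 retroelement and imprint members were called higher. Member limits of 3 and 10 CPM gave 338 and 279 members, with 184 and 163 higher and 26 and 23 lower. Replicates of a group differed by more than counting noise, so depth alone does not set the standard errors, and a missed threshold among the 115 uncalled members does not show equal levels.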
